A study of Oryza sativa with 12 samples.

Results

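The cellulose synthase family of rice (Oryza sativa) was followed in leaf primordia, the young leaves formed at the shoot apex. Its 9 members, OsCESA1 to OsCESA9, were chosen by gene name and located by identifier, and all 9 were present among the 32552 identifiers of every library's table. The identifiers were Os05g0176100 for CESA1, Os03g0808100 for CESA2, Os07g0424400 for CESA3, Os01g0750300 for CESA4, Os03g0837100 for CESA5, Os07g0252400 for CESA6, Os10g0467800 for CESA7, Os07g0208500 for CESA8 and Os09g0422500 for CESA9. The digits after Os name the chromosome, which places CESA3, CESA6 and CESA8 on chromosome 7, CESA2 and CESA5 on chromosome 3, and the others on chromosomes 1, 5, 9 and 10.

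Cellulose is made at the plasma membrane by complexes whose catalytic subunits are CESA proteins, each of which adds glucose from UDP-glucose to a growing glucan chain. Plants use one set of CESA proteins in the primary wall of dividing and expanding cells, and another in the thick secondary wall laid down in vessels and fibres once expansion has ended. In rice CESA4, CESA7 and CESA9 serve the secondary wall, and loss of any of them gives brittle culms, while the other 6 serve mainly the primary wall.

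RNA sequencing covered 12 libraries in 4 groups of 3. WT was the cultivar Nipponbare, ospin1c ospin1d was labelled a knockout of OsPIN1c and OsPIN1d, which encode auxin efflux carriers, and ospid C1 and ospid C2 were both labelled knockouts of OsPID, a protein kinase of the PINOID type that acts on PIN carriers. All plants grew under the same chamber conditions and were sampled during vegetative growth. The labels give no age, no mutant alleles and no statement of how C1 and C2 differ. Nor do they say whether a replicate is a plant of its own, so the p-values below reflect library-to-library spread, which may be technical. In each library a gene's level is given as FPKM, fragments scaled by gene length and library size, which allows levels of different genes to be compared.

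The library size behind the FPKM values was 15211547 to 16422849 reads, a total recovered from those values. Reads of the listed identifiers made up 99.966% to 99.986% of it. It thus counts reads assigned to genes, and the number sequenced is not known from it. Identifiers are not paired with names in the tables, so neither the edited genes nor markers of the tissue were checked. Bulk RNA does not tell fewer cells of a type apart from less RNA per cell. The sources used here give neither the strand setting of the counting nor its treatment of reads shared between similar genes. CESA genes resemble each other, so some reads may have been split between members, and reads of an overlapping or antisense gene may be included.

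The family spanned levels from over 100 FPKM to a handful of reads. In WT the order of mean levels was CESA6 at 101 ± 16.6 FPKM (SD, n = 3), CESA3 at 77.4 ± 16.3, CESA1 at 43.3 ± 3.82, CESA5 at 38.7 ± 4.77, CESA8 at 18.1 ± 3.19, CESA2 at 15.8 ± 2.61, CESA4 at 11.3 ± 2.77, CESA7 at 0.0680 ± 0.0886 and CESA9 at 0.0524 ± 0.0638. The levels fell into steps. CESA3 lay above CESA1, CESA5 above CESA8, and CESA4 above CESA7, with no overlap of their 3 WT libraries. The libraries of CESA6 overlapped those of CESA3, as did those of CESA1 and CESA5, of CESA8 and CESA2, of CESA2 and CESA4, and of CESA7 and CESA9, so the spread between libraries did not separate these neighbours. Within a library the order was steadier for some of these pairs. CESA6 was above CESA3, CESA8 above CESA2 and CESA2 above CESA4 in 3 of 3 WT libraries. CESA1 was above CESA5, and CESA7 above CESA9, in only 2 of 3.

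**Figure D1:**
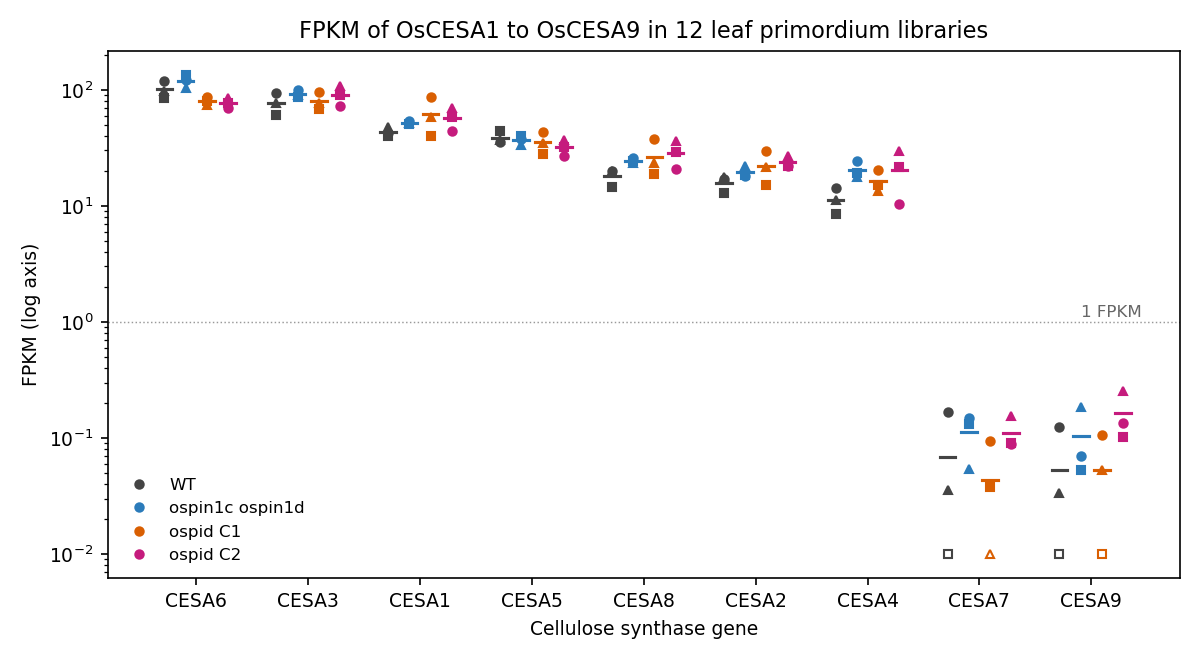
FPKM on a log axis of each of the 9 CESA genes, ordered by WT mean, in 12 libraries coloured by group; circles, squares and triangles are replicates 1, 2 and 3, short bars are group means, and open symbols at the bottom mark libraries listed at 0. The other 7 genes lie above 8 FPKM in every library, whereas CESA7 and CESA9 lie below 0.3 FPKM throughout.

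The secondary-wall genes did not stand at one level. CESA4 was read 11204 times over the 12 libraries, at 485 to 1558 reads per library, whereas CESA7 was read 54 times and CESA9 64 times. In WT the 3 libraries gave CESA7 values of 0.168, 0 and 0.0357 FPKM, from 9, 0 and 2 reads. For CESA9 they gave 0.123, 0 and 0.0337 FPKM, from 7, 0 and 2 reads. WT replicate 1 alone gave 9 of the 11 CESA7 reads and 7 of the 9 CESA9 reads of WT.

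In the mutants CESA7 and CESA9 were also far below CESA4, on 7 to 28 reads per gene and group. CESA7 was at 0.149, 0.132 and 0.0538 FPKM in ospin1c ospin1d, at 0.0933, 0.0374 and 0 in ospid C1 and at 0.0889, 0.0898 and 0.154 in ospid C2. CESA9 was at 0.0703, 0.0533 and 0.186 FPKM in ospin1c ospin1d, at 0.106, 0 and 0.0532 in ospid C1 and at 0.134, 0.102 and 0.254 in ospid C2. Every group overlapped the others for CESA7. For CESA9 the ospid C2 libraries, from 6 to 14 reads, all lay above WT replicates 2 and 3, and overlapped WT replicate 1.

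For a gene of the length of CESA7, 1 read was worth 0.0178 to 0.0192 FPKM. Taking 3 reads as the limit that a count of 0 leaves, for counting error only, CESA7 could be at up to 0.0536 FPKM in WT replicate 2 and 0.0563 in ospid C1 replicate 3. For CESA9 the limit was 0.0506 FPKM in WT replicate 2 and 0.0530 in ospid C1 replicate 2. No test of read counts was made for CESA7 and CESA9, so whether they differed between genotypes was left undecided. Summed over 3 libraries, CESA9 had 9 reads in WT, 18 in ospin1c ospin1d, 9 in ospid C1 and 28 in ospid C2. For CESA7 the sums were 11, 18, 7 and 18 in the same order. Neither gene reached 1 FPKM in 3 libraries, so both stayed out of the test, and 7 of 9 members entered it. With every identifier tested, limma gave adjusted p values from 0.295 to 1 for CESA9 and from 0.641 to 0.818 for CESA7 across the 5 comparisons. The test used log2(FPKM + 1), on which values this far below 1 FPKM barely move. These p values thus cannot show that the 2 genes were unchanged.

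CESA4, the best-read gene of the secondary wall, had the widest spread within groups of the 7 tested members. It stood at 14.1, 8.58 and 11.3 FPKM in WT and at 24.2, 19.0 and 17.7 in ospin1c ospin1d. The ospid C1 libraries had 20.3, 15.0 and 13.4 FPKM, and the ospid C2 libraries 10.4, 21.5 and 29.6. All 3 ospin1c ospin1d libraries were above all 3 of WT, ospid C1 overlapped WT in replicate 3 only, and ospid C2 held both the highest library of all and one inside the WT range. How often tested genes lay apart from WT in this way was not counted, and CESA4 did not pass limma's test against WT with all libraries.

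CESA4 made up nearly all of the secondary-wall genes' share of the family, so that share follows CESA4. CESA4 alone was 3.67% of the 9 genes' summed FPKM in WT, 5.53% in ospin1c ospin1d, 5.06% in ospid C1 and 5.98% in ospid C2. Together CESA4, CESA7 and CESA9 made up 3.70% ± 0.503 of the summed FPKM of the 9 genes in WT (SD, n = 3), 5.58% ± 0.728 in ospin1c ospin1d, 5.08% ± 0.597 in ospid C1 and 6.07% ± 1.87 in ospid C2. The WT libraries, at 3.22% to 4.22%, lay below those of ospin1c ospin1d, at 5.12% to 6.42%, and of ospid C1, at 4.47% to 5.66%, and overlapped ospid C2, at 3.998% to 7.62%. No test was made of this share.

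Among the primary-wall genes, CESA1, CESA2 and CESA8 had profiles close to each other over the 12 libraries. CESA1 stood at 42.4, 39.97 and 47.5 FPKM in WT, at 53.3, 50.7 and 51.9 in ospin1c ospin1d, at 86.1, 40.2 and 58.5 in ospid C1, and at 43.9, 58.1 and 70.0 in ospid C2. CESA8 stood at 20.0, 14.4 and 19.9 FPKM in WT, at 25.8, 24.4 and 23.3 in ospin1c ospin1d, at 38.0, 18.7 and 23.2 in ospid C1, and at 20.6, 28.9 and 36.2 in ospid C2. For both genes the highest libraries were ospid C1 replicate 1 and ospid C2 replicate 3. Every ospin1c ospin1d library was above every WT library for both genes. The ospid C1 libraries overlapped WT for both, and the ospid C2 libraries overlapped WT for CESA1 and lay above it for CESA8. CESA2 had a like pattern, with 16.9, 12.9 and 17.7 FPKM in WT, 18.1, 18.3 and 22.2 in ospin1c ospin1d, 29.7, 15.0 and 21.5 in ospid C1 and 21.8, 22.1 and 26.9 in ospid C2. For CESA2 the ospin1c ospin1d and ospid C2 libraries all lay above WT, and ospid C1 overlapped it. What share of all tested genes lay apart from WT in this way was not counted. None of CESA1, CESA2 and CESA8 passed limma's test against WT with all 12 libraries.

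Likeness was measured as the root mean square difference between 2 profiles of log2(FPKM + 1), each less its own WT mean, over the 12 libraries. It was 0.16 for CESA1 with CESA2, 0.17 for CESA1 with CESA8 and 0.17 for CESA2 with CESA8. These were the 3 smallest values among 21 pairs of the 7 genes. The FPKM of CESA1 was 2.22 ± 0.236 times that of CESA8 (SD over 12 libraries of 4 groups). This ratio ranged from 1.93 to 2.77, and CESA1 itself from 39.97 to 86.1 FPKM. Group means of the ratio ran from 2.03 in ospid C2 to 2.43 in WT. CESA1 with CESA3 and CESA5 with CESA6 followed, both at 0.27, and CESA4 with CESA5 was the least alike at 0.79. The 12 points share genotype and library, so the likeness is a description of these libraries.

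**Figure D2:**
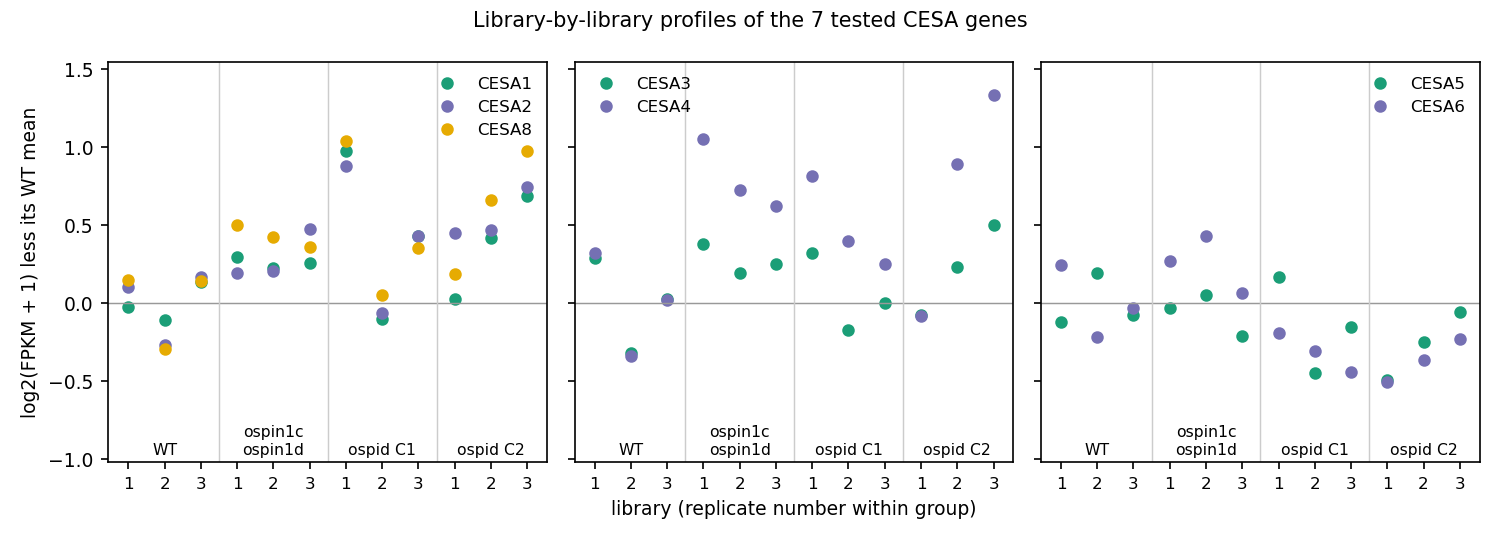
log2(FPKM + 1) of each tested CESA gene less its own WT mean (vertical axis), in the 12 libraries by replicate number within group (horizontal axis), each point being 1 library. CESA1, CESA2 and CESA8 lie close together in most libraries and are highest in ospid C1 replicate 1 and ospid C2 replicate 3, whereas CESA6 lies below its WT mean in all 6 ospid libraries.

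Replicates of ospid C1 were far apart for CESA1. In ospid C1, CESA1 was 61.6 ± 23.1 FPKM (SD, n = 3), against 43.3 ± 3.82 in WT. The within-group SD on the log2 scale, pooled over the 4 groups, was 0.32 for CESA1, 0.29 for CESA2, 0.35 for CESA8 and 0.44 for CESA4, against a median of 0.21 over all 21250 tested genes. CESA5, at 0.22, was near that median and CESA6, at 0.18, below it. Median-ratio size factors, a measure of how high most genes stand in a library, were 1.17 in ospid C1 replicate 1 and 1.09 in ospid C2 replicate 3, the 2 highest of the 12, and 0.918 in ospid C2 replicate 1, the lowest. After division by these factors CESA1 still ranged from 38.3 to 73.4 FPKM in ospid C1, and the part of the size factors in the remaining spread was not tested.

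For CESA3 and CESA5 every mutant group overlapped WT. CESA3, with CESA6 the most abundant member, stood at 93.6, 61.0 and 77.7 FPKM in WT, at 99.7, 87.5 and 91.1 in ospin1c ospin1d, at 95.8, 67.7 and 76.5 in ospid C1, and at 72.4, 89.6 and 108 in ospid C2. Its lowest library of all was WT replicate 2 and its highest ospid C2 replicate 3. CESA5 stood at 35.4, 44.2 and 36.6 FPKM in WT, at 37.7, 40.03 and 33.3 in ospin1c ospin1d, at 43.4, 28.0 and 34.6 in ospid C1, and at 27.1, 32.3 and 37.0 in ospid C2, with the highest library in WT and the lowest in ospid C2.

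In ospin1c ospin1d against WT, 0 of the 7 tested members passed limma's test at an adjusted p under 0.05, where 2.31% of all 21250 tested genes passed it. The estimates were positive for 6 of 7, with a median log2 difference of 0.28, against -0.01 over all tested genes. The members' median was 0.16 without WT replicate 2. At an unadjusted p under 0.05 there was 1 member of 7, beside 3465 of all 21250 tested genes. Over the alternatives there were 0 to 3 members, and voom on the recovered reads also called 0. CESA4 had the largest estimate, a log2 difference of 0.80 (SE 0.311, 95% interval 0.12 to 1.48, adjusted p = 0.222). CESA8 was at 0.43 (interval -0.12 to 0.98, adjusted p = 0.434), or 0.28 without WT replicate 2, and CESA5 at -0.06 (interval -0.42 to 0.30, adjusted p = 0.903). A log2 difference of 1 on this scale thus lay outside the unadjusted interval of every tested member but CESA4. For CESA8 it did so narrowly, and its estimate was 0.45 with a pseudocount of 0.1 and 0.51 without WT replicate 1.

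**Figure D3:**
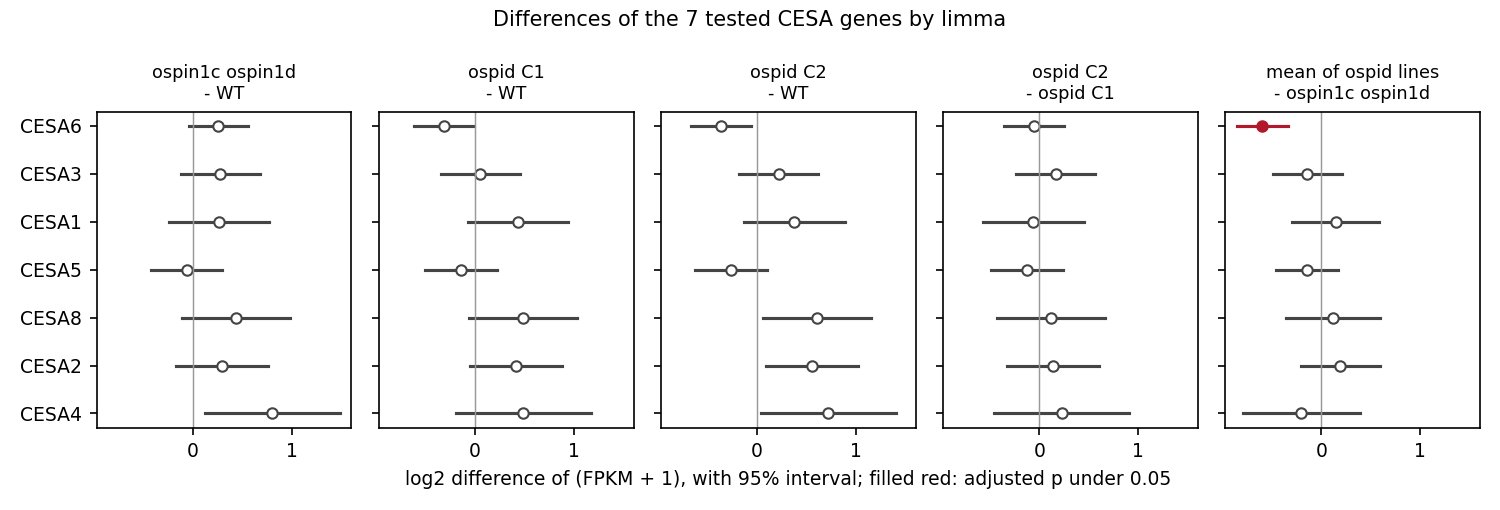
Log2 difference of FPKM + 1 (horizontal axis) with its unadjusted 95% interval for the 7 tested CESA genes (vertical axis) in each of 5 comparisons by limma; filled red marks an adjusted p under 0.05. CESA6 in the ospid lines against ospin1c ospin1d, at -0.59, is the only filled point.

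Loss of the PINOID kinase was examined in 2 lines. For ospid C1 against WT, 0 of 7 members passed limma's test, beside 15.5% of all tested genes. The members' median log2 difference was 0.41 and that of all tested genes 0.15. An unadjusted p under 0.05 was found for 1 member of 7, CESA6, beside 7603 of all 21250 tested genes. CESA1 was at 0.44 (interval -0.07 to 0.94, adjusted p = 0.195), CESA2 at 0.41 (adjusted p = 0.177) and CESA8 at 0.49 (adjusted p = 0.182). CESA6 was at -0.31 (SE 0.137, interval -0.61 to -0.01, adjusted p = 0.125). Voom on the recovered reads called 0 members. These estimates rested on single libraries. Without ospid C1 replicate 1, in which CESA1, CESA2 and CESA8 were highest, CESA1 was at 0.16 (adjusted p = 0.628), CESA2 at 0.18 (adjusted p = 0.569) and CESA8 at 0.21 (adjusted p = 0.585), and the members' median was 0.16. Without ospid C1 replicate 2, in which they were lowest, CESA1 (0.70, adjusted p = 0.0357) and CESA2 (0.65, adjusted p = 0.0351) passed the threshold. CESA6 was at -0.19 (adjusted p = 0.354) without WT replicate 1, its highest WT library. Members with an unadjusted p under 0.05 numbered 0 to 3 over the alternatives.

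In ospid C2 against WT, 0 of 7 passed limma's test, where 10% of all tested genes did. Here 4 of 7 members had an unadjusted p under 0.05, beside 5635 of all 21250 tested genes, and voom called 0. CESA2 was at 0.55 (interval 0.09 to 1.02, adjusted p = 0.120), CESA8 at 0.61 (interval 0.06 to 1.15, adjusted p = 0.146), CESA4 at 0.72 (interval 0.04 to 1.40, adjusted p = 0.168) and CESA6 at -0.36 (interval -0.66 to -0.07, adjusted p = 0.117). The median log2 difference was 0.38 for the members and 0.06 for all tested genes. CESA4 passed the threshold without ospid C2 replicate 1, its lowest library there, at 1.12 (adjusted p = 0.0114). Without ospid C2 replicate 3, its highest, it was at 0.41 (adjusted p = 0.505), and the members' median was 0.22. Without WT replicate 1, CESA6 was at -0.24 (adjusted p = 0.308). Members with an unadjusted p under 0.05 numbered 1 to 5 over the alternatives.

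Both ospid comparisons with WT moved with the scaling of the libraries. The shift of 0.15 in the median gene of ospid C1 became -0.000691 with median-ratio scaling, and the calls over all genes went from 2166 higher and 1127 lower to 1258 higher and 1908 lower. Relative to that shift CESA6 was lower in ospid C1, by a log2 difference of -0.49 (adjusted p = 0.0272 by limma), and in ospid C2, by -0.43 (adjusted p = 0.0470). It was then the only one of the 7 members to pass in either line. The members with positive estimates in ospid C1 came out smaller on this scale, with CESA1 at 0.26, CESA2 at 0.24, CESA8 at 0.31 and the members' median at 0.24. Quantile normalization, another scaling, gave -0.30 (adjusted p = 0.128) and -0.34 (adjusted p = 0.104). The direction of CESA6 was the same in all 3 scalings, and its side of the threshold was not.

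The lines C1 and C2 carry the same genotype label and were set against each other. None of 7 members, 0 by limma and 0 by voom, differed between them. An unadjusted p under 0.05 was found for 0 members, beside 2223 of all 21250 tested genes. Over all genes 0.00941% were called. CESA6 had a log2 difference of -0.05 between the lines (interval -0.35 to 0.25), CESA1 of -0.06 (interval -0.57 to 0.45) and CESA4 of 0.23 (interval -0.45 to 0.91). For CESA4 a difference of up to 0.91 on the log2 scale between the lines is thus within the error.

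The ospid lines and the double mutant were compared directly, to see where loss of the kinase differs from loss of the carriers. CESA6, the most abundant family member in WT, was lower in the ospid lines. It stood at 121, 135 and 104 FPKM in ospin1c ospin1d, at 87.2, 80.6 and 73.3 in ospid C1, and at 70.0, 77.4 and 85.2 in ospid C2. All 6 ospid libraries lay below all 3 of ospin1c ospin1d. What share of all tested genes separated these libraries completely was not counted. The WT libraries, at 119, 85.6 and 97.9 FPKM, overlapped both sides, and only ospid C1 replicate 1 among the ospid libraries was above the lowest of them.

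For CESA6 the log2 difference of the averaged ospid lines from ospin1c ospin1d was -0.59 by limma (SE 0.118, 95% interval -0.85 to -0.33, adjusted p = 0.00738). It was 1 of 7 tested members called, where 19.2% of all tested genes were called and 6.96% were called lower. A share of this size is near the background. The other 6 had adjusted p values of 0.477 to 0.731, with log2 differences from -0.20 for CESA4 to 0.19 for CESA2, and the members' median was -0.14, against 0.09 for all tested genes. CESA6 kept its direction and its side of the threshold in all 19 alternatives, with adjusted p values from 0.00183 to 0.0490. The highest came without ospin1c ospin1d replicate 2, its highest library. With median-ratio scaling the calls over all genes went from 2593 higher and 1478 lower to 1944 higher and 2114 lower, and CESA6 was at -0.71 (adjusted p = 0.00183). This comparison shares its ospid libraries with those against WT, so the results are not independent.

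Measures taken within a library do not depend on how libraries are scaled. CESA6 made up 32.9% ± 1.64 of the family's summed FPKM in WT (SD, n = 3), 32.7% ± 2.93 in ospin1c ospin1d, 25.5% ± 4.43 in ospid C1 and 23.8% ± 2.34 in ospid C2. The WT libraries ran from 31.7% to 34.7% and the ospin1c ospin1d libraries from 30.3% to 36.0%. In ospid C1 the range was 21.8% to 30.4%, which reached the lowest ospin1c ospin1d library in replicate 2, and in ospid C2 it was 21.6% to 26.3%. Shares within a family sum to 100%, so a lower share of CESA6 goes with higher shares of others. That of CESA8 was 5.41% to 6.45% in WT, 6.50% to 6.80% in ospin1c ospin1d, 7.04% to 9.47% in ospid C1 and 7.71% to 9.20% in ospid C2.

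CESA6 and CESA3, the most abundant genes of the family, had means of 80.4 and 79.99 FPKM in ospid C1, and stood in the opposite order to WT in ospid C2 alone, at 77.5 and 90.1 FPKM with overlapping libraries. Library by library, CESA6 was 1.27, 1.40 and 1.26 times CESA3 in the WT libraries and 1.21, 1.54 and 1.15 times in ospin1c ospin1d. It was 0.911, 1.19 and 0.957 times CESA3 in ospid C1 and 0.967, 0.864 and 0.787 times in ospid C2. CESA6 thus exceeded CESA3 in all 6 libraries of WT and ospin1c ospin1d and in 1 of 6 ospid libraries, ospid C1 replicate 2. All ospid libraries lay below all WT libraries on this ratio. The ratio was picked after the values were seen and was not tested.

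**Figure D4:**
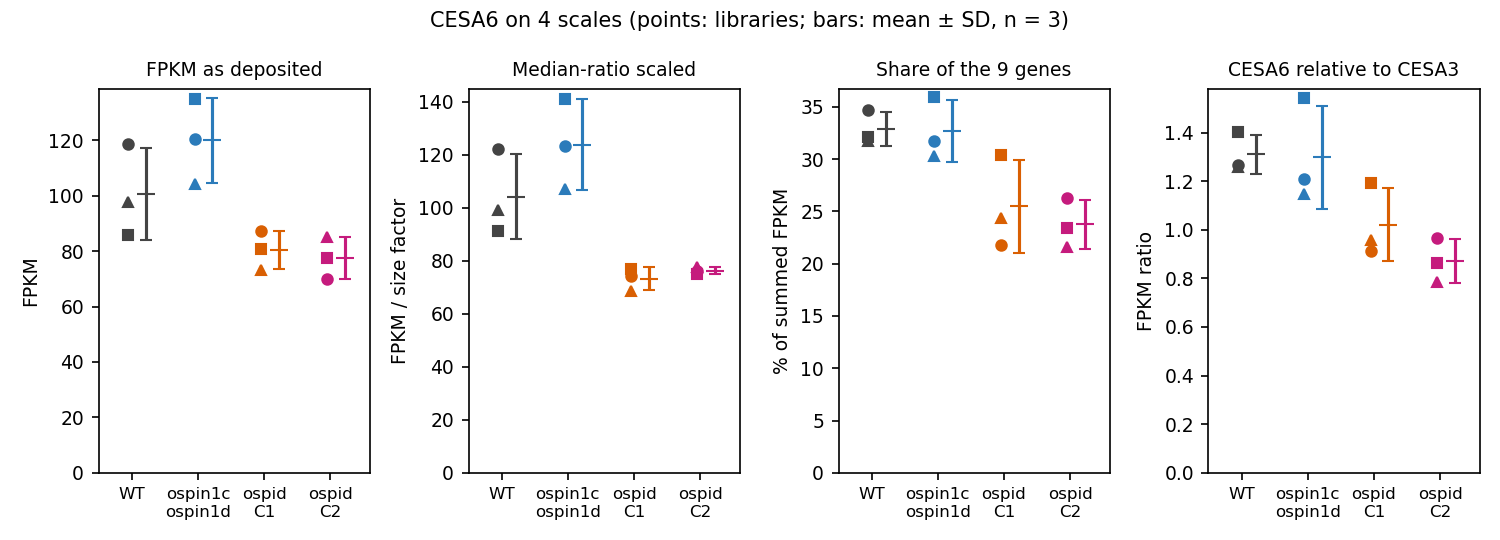
CESA6 by group on 4 vertical scales: FPKM as deposited, FPKM divided by the median-ratio size factor, percent of the summed FPKM of the 9 CESA genes, and the ratio to CESA3 in the same library. Points are libraries (circle, square and triangle for replicates 1, 2 and 3) and bars the mean ± SD of 3; scaled values are 68.5 to 77.8 in the 6 ospid libraries and 91.3 to 141 in the other 6.

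Summed over the family, the differences of the ospid lines from WT were small against the spread within those lines. The summed FPKM of the 9 genes was 305 ± 37.4 in WT (SD, n = 3), 366 ± 19.4 in ospin1c ospin1d, 322 ± 70.2 in ospid C1 and 330.1 ± 63.5 in ospid C2. The ospin1c ospin1d libraries, at 344 to 380 FPKM, lay just above the WT libraries, at 267 to 341. Both ospid lines overlapped the WT range, at 265 to 401 and 267 to 394 FPKM.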

How the data were processed

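The authors deposited 1 table of FPKM values for each library, as the tables were deposited per the file headers. Per the submitters' processing notes, HISAT2 2.1.0, HTSeq 0.6.0, Bowtie2 2.2.3 and the IRGSP-1.0 build are listed, with no role given. Since 1 read adds a fixed amount to an FPKM value, depth, gene length and reads were recovered from its steps. Every identifier gave whole reads within 0.001 reads. Lengths of the 9 genes, each the smallest that gave whole reads, came out at 3425 to 4322 bases.

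All 12 libraries entered 1 limma fit (limma 3.58.1, R 4.3.3), on log2(FPKM + 1), with a mean per group and a prior that follows mean level. A gene was kept if 3 or more libraries reached 1 FPKM, which left 21250. P-values were adjusted by Benjamini-Hochberg over all of them, two-sided, with a threshold of 0.05. Comparisons with WT share its libraries. The scale understates changes of low genes. The design foresaw counts, with this test if the files held FPKM. The script was tested on simulated data. Alternatives were other scalings, no filter, a pseudocount of 0.1, only the groups compared, the replicate block, voom on recovered reads, and each library left out.

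The members, and the rule that names them all plus at most 2 identifiers of like pattern per wall type, were chosen with earlier results of these data known. A RefSeq table of 39387 rice genes (assembly ASM3414082v1) matched 0 of the 9 identifiers directly. It lists genes under the synonyms OsCesA1 to OsCesA9, on the same chromosome as the identifier in 9 of 9. Other wall genes were fixed for naming only where such a table pairs them with identifiers, and are not described. No sequences were used here.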

Additional observations from a re-analysis of the deposited data

Results flagged for a closer look

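CESA6 was singled out because the mutants differed from each other by a direct test: the mean of ospid C1 and ospid C2 was -0.59 from ospin1c ospin1d on the log2 scale (limma, adjusted p = 0.00738), with all 6 ospid libraries below all 3 of ospin1c ospin1d. Its log2 difference from WT was 0.26 in ospin1c ospin1d, -0.31 in ospid C1 and -0.36 in ospid C2, none of which passed the threshold as deposited. How many of all tested genes likewise separated the ospid libraries from those of ospin1c ospin1d was not counted. Groups of 3 libraries were not searched for single stray libraries.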

How the results depend on the processing

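The count of CESA members called was 0 in the main test for both ospid lines against WT and became 1 in each with median-ratio scaling (CESA6). Without single libraries it was 0 to 2 for ospid C1, 0 to 1 for ospid C2, 0 for ospin1c ospin1d against WT, 0 between the ospid lines, and 1 for the ospid lines against ospin1c ospin1d. Replicate numbers give no pairing here, since deviations from group means correlated at -0.227 to 0.0694 in 18 same-numbered pairs of libraries. With the replicate block the counts were 0, 0, 0, 0 and 1, as without it, and the block changed no call. Over all genes the block moved the calls from 490 to 325 for ospin1c ospin1d against WT and from 3293 to 2141 for ospid C1 against WT. Between the ospid lines 2 genes were called as deposited and 0 with median-ratio scaling or voom.

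Of 665 log2 differences of the 7 tested members under alternatives, 647 kept their direction. The 18 that turned belong to 10 results of at most 0.23 in size, none called. With median-ratio scaling CESA3 was at -0.13 in ospid C1 against WT, and CESA1 at 0.0525 and CESA6 at 0.0605 in ospid C2 against ospid C1. Leaving out a library gave the other 15, and the ranges of those results were as follows: CESA5 -0.12 to 0.0346 in ospin1c ospin1d, CESA3 -0.11 to 0.20 and CESA5 -0.30 to 0.00867 in ospid C1 against WT. Between the ospid lines they were CESA1 -0.33 to 0.21, CESA2 -0.10 to 0.37, CESA4 -0.0820 to 0.63, CESA5 -0.27 to 0.0332, CESA6 -0.12 to 0.0181 and CESA8 -0.0918 to 0.40, and for CESA8 in the ospid lines against ospin1c ospin1d -0.0234 to 0.22. The cause was not tested. Low read numbers, 0 to 14 per library, concern CESA7 and CESA9 alone.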

Other observations

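The tested identifiers outside the family whose profiles lay nearest to its own were looked up by root mean square difference on the log2 scale over the 12 libraries. For the mean profile of CESA1, CESA2, CESA3, CESA5, CESA6 and CESA8 they were Os01g0534900, at 0.08, and Os02g0709400, at 0.09, against a median of 0.36 over 21243 identifiers. Their mean levels were 32.9 and 17.4 FPKM. This mean profile averages members that moved apart, with CESA6 and CESA8 differing by 0.67. Closeness to it is thus not closeness to any single member. For the mean profile of CESA4, CESA7 and CESA9 the nearest were Os07g0420000, at 0.07, and Os04g0518200, at 0.08, with mean levels of 5.11 and 1.51 FPKM. CESA7 and CESA9 hardly moved on this scale, so that mean follows CESA4 at a much smaller size. The 2 identifiers lie near this smaller movement, and their distance from CESA4 itself is not given. The tables give these identifiers no names.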
